A study of Arabidopsis thaliana with 18 samples.

Results

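The UGT family of Arabidopsis thaliana was followed through 1.5 h of low oxygen in plants of 3 genotypes, labelled as whole rosettes. Members were all probe sets annotated to a single gene whose symbol starts with UGT and a number, which gave 47 probe sets for 47 genes among 22746 probe sets tested. They belonged to 11 subfamilies, named by the number after UGT, and each gene had 1 probe set. Family 1 UDP-glycosyltransferases move a sugar, most often glucose, from a UDP-sugar onto a small acceptor molecule. The acceptors in Arabidopsis include plant hormones, flavonols, hydroxycinnamic acids, lignin precursors, glucosinolate precursors, sterols and foreign chemicals. Glycosylation changes the solubility and activity of the acceptor and commonly prepares it for storage in the vacuole. The gene sequences were not analysed here.

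All plants were of the Columbia-0 ecotype and 5 weeks old, and total RNA was hybridised to 1-colour Affymetrix Arabidopsis Genome arrays, 18 in all, with 3 per group. The labels name the source as the whole rosette, while the extraction notes speak of whole plants, so whether roots were included is not settled. The wild type was compared with plants expressing 35S::HA::RAP2.12 (called HA-RAP2.12), in which a strong, broadly active promoter drives a tagged RAP2.12, and with plants expressing 35S::amiRAP2.2-12 (called amiRAP2.2-12), in which the same promoter drives an artificial microRNA named for RAP2.2 and RAP2.12. Both proteins belong to the ethylene response factors and switch on genes of the low-oxygen response. Plants of every genotype were held in the dark at 22 °C for 1.5 h in 21% oxygen, called air, or in 1% oxygen, called hypoxia, so darkness was common to all 6 groups. The labels do not give the number of independent lines, and they do not say whether the 3 arrays of a group came from separate plants. Every p-value therefore measures only the spread between these samples, which may be technical. Transcripts of either factor were not analysed here, so the constructs were not checked through their targets.

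Levels are log2 signals after GCRMA, whose lowest value was 2.11, and differences are log2 differences with the standard error (SE) of a limma fit to all 18 arrays. A member was said to rise, fall or differ where its two-sided p, adjusted by the Benjamini-Hochberg method over all 22746 probe sets, was under 0.05. Group means under log2 2.5 were treated as the floor of the measurement. Array medians ran from 5.59 to 5.81. The median SD between the 3 arrays of a group lay between 0.067 and 0.135, highest in amiRAP2.2-12 under hypoxia. Replicate 2 of that group stood apart, at -47.4 on the second principal component against -13.9 to 19.8 for the other 17 arrays. It deviated together with replicate 2 of amiRAP2.2-12 in air and replicate 1 of HA-RAP2.12 in air and under hypoxia, with pairwise correlations of 0.242 to 0.634 between their deviations from the group means. Where leaving out these 4 arrays changed a call of a member above the floor, the value without them is given beside it. In such whole material, a change in the share of a cell type and a change in RNA per cell cannot be told apart. Of the leaf markers, PRK and SBPASE, both of the Calvin cycle, had named probe sets, and their group means lay at or above 13.09 in all 6 groups. Of the root markers 5 of 6 were measured and 4 were at the floor in all groups, while PYK10, a root beta-glucosidase, ranged from a group mean of 6.27 ± 2.22 (SD, n = 3) in amiRAP2.2-12 under hypoxia to 8.66 ± 0.09 (SD, n = 3) in wild type under hypoxia. The part of PYK10-bearing tissue in the results below was not tested.

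The family divided into 25 genes measured above the floor in at least 1 group and 22 at the floor in all 6 groups. The floor held 46.8% of the members and 33.4% of all probe sets. It took in UGT71B5, UGT71B8, UGT71C1, UGT71C2, UGT71C3, UGT72E2, UGT72E3, UGT73B4, UGT73C1, UGT73C2, UGT73C7, UGT73D1, UGT74F1, UGT76D1, UGT76E1, UGT76E2, UGT78D3, UGT84A1, UGT84B1, UGT84B2, UGT85A3 and UGT85A7. Among them UGT72E2 and UGT72E3 act on lignin precursors, UGT84B1 on auxin, UGT74F1 on salicylic acid and UGT78D3 adds arabinose to flavonols. A value at the floor gives no level, so a gene there may be expressed below what these arrays could measure.

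Under low oxygen more UGT genes rose than fell in each genotype, and the largest rises came from subfamilies 76, 73, 84 and 87. In wild type 13 of the 47 members rose, 27.7%, against 11.5% of all probe sets. In HA-RAP2.12 13 rose as well, against 10.4% of all probe sets, and in amiRAP2.2-12 12 rose, 25.5%, against 8.04%. Falls were close to the background: 5 members in wild type, 10.6% against 10.3% of all probe sets, 4 in HA-RAP2.12, 8.51% against 8.95%, and 3 in amiRAP2.2-12, 6.38% against 8.27%. The median difference over the members was 0.01 in wild type and 0.00 in both lines, against 0.00 over all probe sets in each and with 22 of the 47 members at the floor. Of the calls, 13 in wild type, 11 in HA-RAP2.12 and 7 in amiRAP2.2-12 were at least 2-fold. These were 27.7%, 23.4% and 14.9% of the members, against 7.07%, 7.32% and 5.52% of all probe sets.

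**Figure D1:**
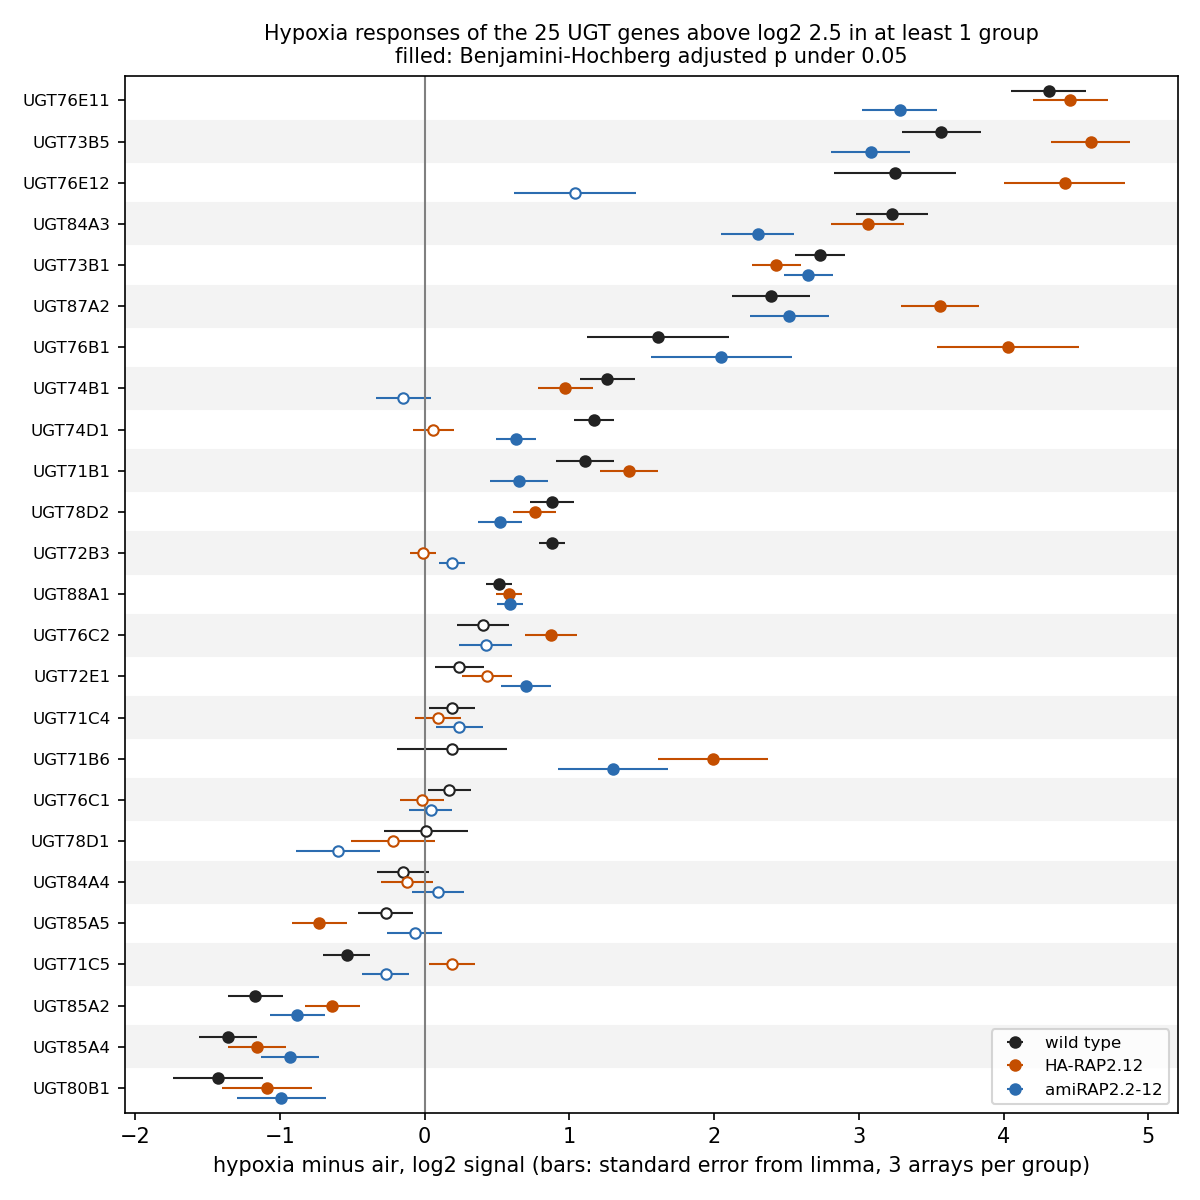
Hypoxia minus air on the log2 scale for the 25 UGT genes above the floor in at least 1 group, ordered by the wild-type response. Points are the limma estimates from 3 arrays per group, bars are 1 standard error, and filled points passed an adjusted p of 0.05. UGT76E11 leads in wild type at 4.31, and UGT80B1 is lowest at -1.43.

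Across the genotypes 22 members changed in at least 1 hypoxia response, 16 of them upwards and 6 downwards, and 0 rose in one genotype and fell in another. The rises covered 34% of members against 16.5% of all probe sets. The falls covered 12.8% of members against 14.5%, and 5 of the 6 were of genes above the floor, the other being UGT71C2. The 9 genes that rose in all 3 were UGT71B1, UGT73B1, UGT73B5, UGT76B1, UGT76E11, UGT78D2, UGT84A3, UGT87A2 and UGT88A1. They made up 19.1% of the members, whereas 4.77% of all probe sets rose in all 3. UGT80B1, UGT85A2 and UGT85A4 fell in all 3, which was 6.38% of members against 4.9% of all probe sets. Above the floor, UGT71C4, UGT76C1, UGT78D1 and UGT84A4 passed the test in none of the 3 responses.

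UGT76E11 (AT3G46670), an enzyme linked to the glucosylation of flavonols, had the largest wild-type rise among the 47 members. Its wild-type values were 4.12, 3.72 and 3.86 in air and 8.12, 8.23 and 8.28 under hypoxia. HA-RAP2.12 gave 4.53, 3.50 and 3.64 in air and 8.55, 8.24 and 8.28 under hypoxia, and amiRAP2.2-12 gave 4.86, 4.10 and 3.91 and then 7.56, 7.70 and 7.46. All 9 hypoxic arrays lay well above all 9 arrays in air. The rise was 4.31 ± 0.26 (SE) in wild type (adjusted p = 2.73e-07, 19.8-fold), 4.46 in HA-RAP2.12 (adjusted p = 2.09e-07) and 3.28 in amiRAP2.2-12 (adjusted p = 4.16e-06). In wild type it ranked 49th among the rises of all 22746 probe sets.

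UGT76E12 (AT3G46660), its close relative, went from the floor to clear signal in wild type and HA-RAP2.12. Wild type read 2.11 on all 3 arrays in air and 5.11, 5.40 and 5.57 under hypoxia. HA-RAP2.12 read 2.11, 2.11 and 2.33 in air and 6.61, 6.72 and 6.50 under hypoxia. These groups did not overlap, and the rises were 3.25 ± 0.42 (SE, adjusted p = 0.000101) and 4.42 ± 0.42 (adjusted p = 8.89e-06). Both start at the floor, so the size of the rise depends on how background was removed.

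In amiRAP2.2-12 UGT76E12 was scattered, with 3.67, 2.90 and 2.11 in air and 2.82, 4.45 and 4.53 under hypoxia, and the groups overlapped. The difference there was 1.04 (adjusted p = 0.123). It passed with arrayWeights (1.39, adjusted p = 0.0115), without replicate 1 in air (1.43, adjusted p = 0.0431) or without replicate 1 under hypoxia (1.60, adjusted p = 0.00543). The response was smaller than in wild type by an estimate of -2.21 ± 0.59 (SE), a difference that did not pass over all probe sets (adjusted p = 0.19). It passed with arrayWeights (-1.83, adjusted p = 0.0411) or without replicate 3 in air (-2.61, adjusted p = 0.0439), but not without the 4 arrays (-2.47, adjusted p = 0.306). The HA-RAP2.12 response was above that of wild type by an estimate of 1.17, which did not pass with all arrays. It passed in a fit restricted to the compared arrays (adjusted p = 0.00518) but not without the 4 arrays (1.13, adjusted p = 0.677).

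UGT73B5 (AT2G15480), known for a part in redox balance during the response to bacterial pathogens, was near the floor in air and high under hypoxia. Wild type read 3.87, 4.29 and 3.45 in air and 7.54, 7.42 and 7.34 under hypoxia. HA-RAP2.12 read 3.42, 2.70 and 3.16 and then 7.87, 7.49 and 7.71, and amiRAP2.2-12 read 3.53, 2.98 and 3.83 and then 6.27, 6.93 and 6.37. Air and hypoxia did not overlap in any genotype. The rises were 3.57 ± 0.27 (SE, adjusted p = 1.26e-06) in wild type, 4.60 (adjusted p = 1.94e-07) in HA-RAP2.12 and 3.08 (adjusted p = 8.11e-06) in amiRAP2.2-12.

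UGT73B1 (AT4G34138), of the same subfamily, was already well above the floor in air. Its wild-type values were 8.11, 8.26 and 8.35 in air and 10.86, 11.13 and 10.93 under hypoxia, a rise of 2.73 ± 0.17 (SE, adjusted p = 3.35e-07). It rose by 2.43 in HA-RAP2.12 (adjusted p = 8.81e-07) and by 2.65 in amiRAP2.2-12 (adjusted p = 8.5e-07). The other 5 members of subfamily 73 were at the floor in all groups, UGT73B4 among them.

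UGT87A2 (AT2G30140), known for roles in flowering time and in tolerance of dry or salty conditions, gave 8.63, 8.39 and 8.40 in wild type in air and 10.84, 10.83 and 10.93 under hypoxia. HA-RAP2.12 gave 8.67, 7.77 and 7.93 and then 12.03, 11.43 and 11.60, and amiRAP2.2-12 gave 8.81, 8.45 and 8.19 and then 10.75, 11.58 and 10.68. The highest hypoxic arrays of the lines were replicate 1 of HA-RAP2.12 and replicate 2 of amiRAP2.2-12, both among the 4 that deviated together. The rises were 2.39 ± 0.27 (SE, adjusted p = 4e-05), 3.56 (adjusted p = 1.58e-06) and 2.52 (adjusted p = 4.53e-05) in wild type, HA-RAP2.12 and amiRAP2.2-12. Without the 4 arrays the rises in the lines were 3.66 and 2.21. The HA-RAP2.12 response then exceeded that of wild type by 1.27 (adjusted p = 0.0277), a difference that did not pass with all arrays.

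UGT88A1 (AT3G16520), the only member of subfamily 88 here, rose by 0.51 ± 0.09 (SE, adjusted p = 0.0011) in wild type, 0.58 in HA-RAP2.12 (adjusted p = 0.000474) and 0.59 in amiRAP2.2-12 (adjusted p = 0.000602). The arrays in air and under hypoxia did not overlap in any genotype, and the amiRAP2.2-12 call was lost where only its own arrays were fitted (adjusted p = 0.0672). Its group means ran from 11.76 to 12.50.

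**Figure D2:**
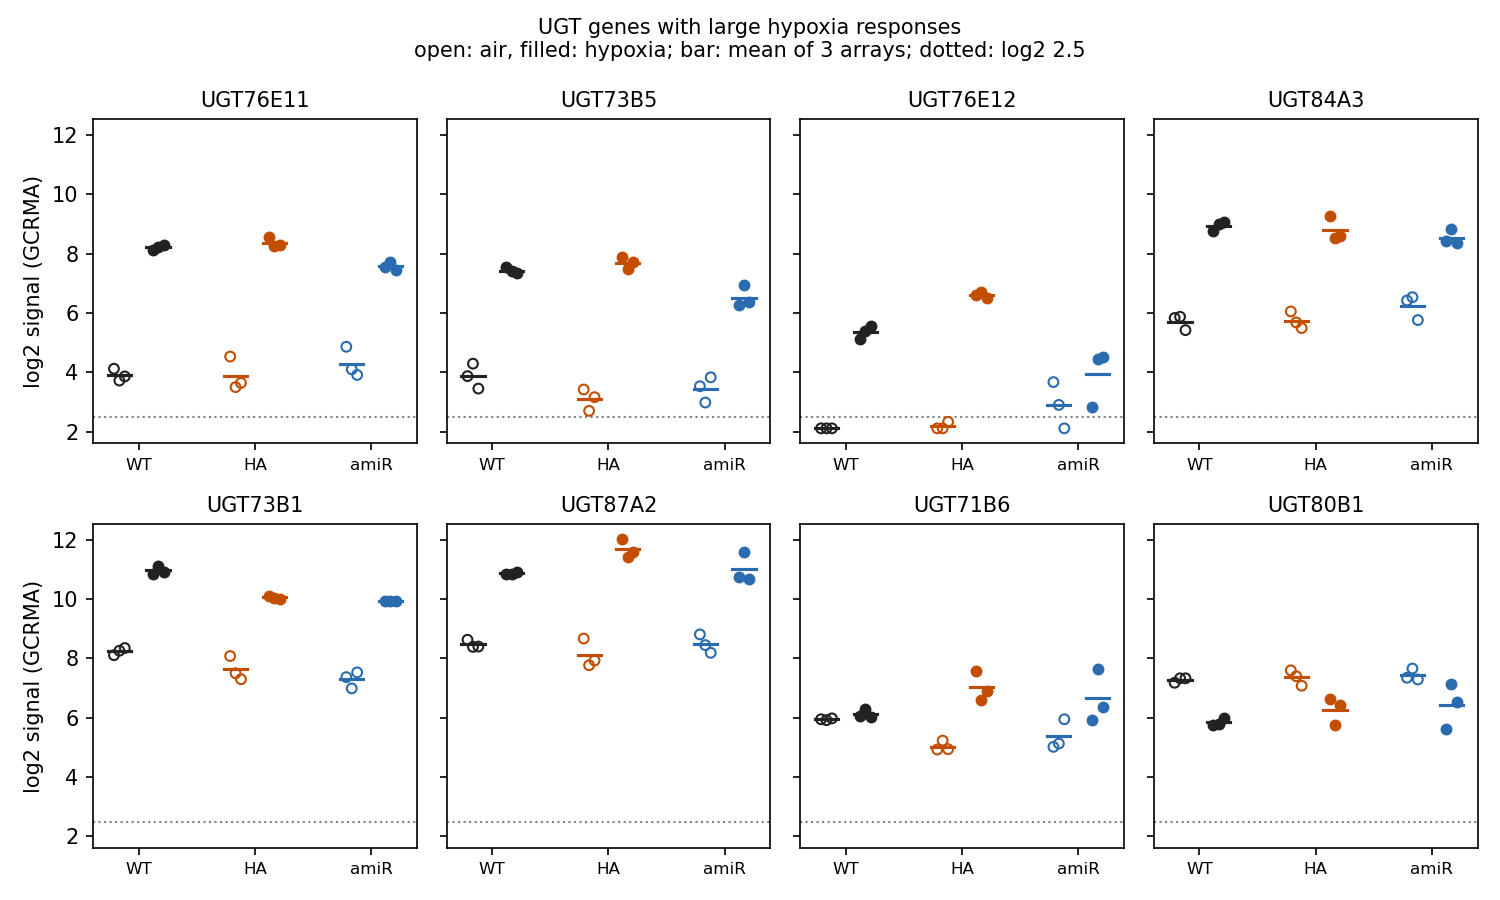
Log2 signal on each of the 18 arrays for 8 UGT genes with large hypoxia responses; WT is wild type, HA is HA-RAP2.12 and amiR is amiRAP2.2-12. Open circles are air, filled circles hypoxia, bars the mean of 3 arrays and the dotted line log2 2.5. UGT76E12 sits at 2.11 on all 3 wild-type arrays in air, and its amiRAP2.2-12 arrays overlap between air and hypoxia.

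UGT84A3 (AT4G15490) joins glucose to hydroxycinnamic acids such as sinapic acid in an ester. Wild type read 5.83, 5.87 and 5.42 in air and 8.75, 9.00 and 9.06 under hypoxia. HA-RAP2.12 read 6.05, 5.68 and 5.49 and then 9.27, 8.53 and 8.59, and amiRAP2.2-12 read 6.42, 6.53 and 5.76 and then 8.43, 8.82 and 8.37. No array in air reached any hypoxic array. The rises were 3.23 ± 0.25 (SE, adjusted p = 1.47e-06), 3.06 (adjusted p = 2.61e-06) and 2.30 (adjusted p = 4.28e-05) in wild type, HA-RAP2.12 and amiRAP2.2-12. UGT84A4, with the same type of acceptor, gave -0.15, -0.12 and 0.09 in the 3 responses, none past the test, and the remaining 3 members of subfamily 84 were at the floor.

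UGT78D2, which adds glucose to flavonols and anthocyanidins, rose by 0.88 ± 0.15 (SE) in wild type (adjusted p = 0.000818), 0.76 in HA-RAP2.12 (adjusted p = 0.0025) and 0.52 in amiRAP2.2-12 (adjusted p = 0.0307). The amiRAP2.2-12 call was lost when any 1 of 5 of its 6 arrays was left out, all but replicate 2 under hypoxia, with values of 0.41 to 0.56 and adjusted p of 0.0533 to 0.109. It was also lost without the 4 arrays (0.63, adjusted p = 0.0526) and in a fit restricted to the compared arrays (adjusted p = 0.144). UGT78D1, which adds rhamnose to flavonols, gave 0.01, -0.22 and -0.60 and passed in none of the 3. The amiRAP2.2-12 value passed without replicate 3 in air (-0.90, adjusted p = 0.0428).

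UGT72E1, which glucosylates lignin precursors, rose in amiRAP2.2-12 by 0.70 ± 0.17 (SE, adjusted p = 0.0145), against values of 0.24 and 0.43 in wild type and HA-RAP2.12 that did not pass. The call was lost without replicate 1 or replicate 2 of amiRAP2.2-12 in air, at 0.66 (adjusted p = 0.0522) and 0.67 (adjusted p = 0.0504), and in a fit restricted to the compared arrays (adjusted p = 0.242). The HA-RAP2.12 value passed without replicate 2 of amiRAP2.2-12 under hypoxia (0.43, adjusted p = 0.0213) and with arrayWeights (0.35, adjusted p = 0.0459). That array held the highest UGT72E1 value of its group, 10.62 against 9.94 and 9.90. Without the 4 arrays the amiRAP2.2-12 rise was 0.44 (adjusted p = 0.0243), and the HA-RAP2.12 value was 0.25 and did not pass (adjusted p = 0.151).

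UGT71B6 (AT3G21780), which glucosylates abscisic acid, barely differed in wild type, with 5.95, 5.92 and 5.98 in air and 6.07, 6.30 and 6.04 under hypoxia (0.19, adjusted p = 0.999). HA-RAP2.12 gave 4.93, 5.23 and 4.94 in air and 7.57, 6.60 and 6.91 under hypoxia, and amiRAP2.2-12 gave 5.02, 5.13 and 5.95 and then 5.94, 7.66 and 6.38. The HA-RAP2.12 groups were far apart, while in amiRAP2.2-12 an array in air reached the lowest hypoxic array.

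The UGT71B6 rise was 1.99 ± 0.38 (SE, adjusted p = 0.00223) in HA-RAP2.12 and 1.30 ± 0.38 (adjusted p = 0.0357) in amiRAP2.2-12. The highest hypoxic values of both lines came from arrays among the 4 that deviated together, and without the 4 the rises were 1.67 in HA-RAP2.12, still past the test, and 0.68 in amiRAP2.2-12 (adjusted p = 0.188). The amiRAP2.2-12 call was also lost without replicate 1 in air (1.12, adjusted p = 0.125), replicate 2 in air (1.18, adjusted p = 0.114) or replicate 2 under hypoxia (0.79, adjusted p = 0.106), and in a fit restricted to the compared arrays (adjusted p = 0.37). Against wild type, the HA-RAP2.12 estimate was lower in air (-0.92, adjusted p = 0.468) and higher under hypoxia (0.89, adjusted p = 0.263). Neither passed with all arrays, and the hypoxia difference passed with arrayWeights (0.75, adjusted p = 0.0235). The HA-RAP2.12 response exceeded that of wild type by 1.81 ± 0.54 (SE), which did not pass with all arrays (adjusted p = 0.144). It passed without replicate 2 of amiRAP2.2-12 under hypoxia (adjusted p = 0.0223). It also passed under arrayWeights (1.68, adjusted p = 0.0058) and in a fit without the amiRAP2.2-12 arrays (adjusted p = 0.0132).

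UGT71C5, also an abscisic acid glucosyltransferase, was called lower under hypoxia in wild type, where it fell by 0.54 (SE 0.16, adjusted p = 0.03). Leaving out any 1 of the 6 wild-type arrays except replicate 2 in air ended this call, with values of -0.57 to -0.51 and adjusted p of 0.0596 to 0.0913. Its values in HA-RAP2.12 and amiRAP2.2-12 were 0.19 and -0.27, not past the test. The amiRAP2.2-12 value passed without replicate 2 under hypoxia (-0.48, adjusted p = 0.02). HA-RAP2.12 differed from wild type in this response by 0.72, which did not pass (adjusted p = 0.172) but did without amiRAP2.2-12 hypoxia replicate 1 (adjusted p = 0.0358) or replicate 2 (adjusted p = 0.0259) and in a fit restricted to the compared arrays (adjusted p = 0.00666).

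UGT71B1 rose by 1.11 ± 0.20 (SE, adjusted p = 0.0011) in wild type and 1.41 in HA-RAP2.12 (adjusted p = 0.000198). In amiRAP2.2-12 it rose by 0.65 (adjusted p = 0.0377) with overlapping arrays, and leaving out any of 10 single arrays of the 18 ended that call, at 0.48 to 0.65 and adjusted p of 0.0502 to 0.142. So did leaving out the 4 arrays (0.66, adjusted p = 0.157) and fitting only the arrays compared (adjusted p = 0.332). UGT71C2, at the floor in all groups, was the fifth member called in wild type, at -0.12, and 15 single arrays ended its call, at -0.12 to -0.09. That value describes differences at the floor and was not read further.

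The cytokinin N-glucosyltransferases UGT76C1 and UGT76C2 gave small differences. UGT76C2 rose in HA-RAP2.12 by 0.87 ± 0.18 (SE, adjusted p = 0.00336), with 0.40 and 0.42 in wild type and amiRAP2.2-12, not past the test. In a fit restricted to the compared arrays the HA-RAP2.12 call was lost (adjusted p = 0.061) and the wild-type value passed (adjusted p = 0.0163). The amiRAP2.2-12 value passed without replicate 1 under hypoxia (0.60, adjusted p = 0.0333). UGT76C1 gave 0.17, -0.02 and 0.04.

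UGT74B1, the S-glucosyltransferase of glucosinolate synthesis, rose by 1.26 ± 0.19 (SE, adjusted p = 0.000396) in wild type and 0.97 ± 0.19 (adjusted p = 0.00277) in HA-RAP2.12. In amiRAP2.2-12 the difference was -0.15 and did not pass. Without the 4 arrays the HA-RAP2.12 rise was 0.82 (adjusted p = 0.0619). The amiRAP2.2-12 response was below that of wild type by -1.41 ± 0.27 (SE), which did not pass over all probe sets (adjusted p = 0.0753). It passed without amiRAP2.2-12 air replicate 3 (-1.63, adjusted p = 0.00423) or hypoxia replicate 1 (-1.42, adjusted p = 0.0389). It also passed with median centring (-1.33, adjusted p = 0.0439) and with the filter on dim probe sets (adjusted p = 0.0324). Without the 4 arrays it did not pass (-1.30, adjusted p = 0.208).

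UGT80B1 (AT1G43620), a sterol glucosyltransferase, had the largest fall in the family in wild type and in amiRAP2.2-12, and the second largest after UGT85A4 in HA-RAP2.12. Wild type read 7.18, 7.33 and 7.33 in air and 5.77, 5.80 and 5.98 under hypoxia. HA-RAP2.12 read 7.60, 7.40 and 7.08 and then 6.62, 5.74 and 6.44, and amiRAP2.2-12 read 7.35, 7.66 and 7.29 and then 5.63, 7.14 and 6.54. Every hypoxic array lay below every array in air of its genotype, tightly in wild type and loosely in the lines. The gene fell in each, with differences of -1.43 ± 0.31 (SE, adjusted p = 0.005) in wild type, -1.09 (adjusted p = 0.027) in HA-RAP2.12 and -0.99 (adjusted p = 0.0486) in amiRAP2.2-12.

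The HA-RAP2.12 fall of UGT80B1 lost its call without replicate 1 in air (-0.97), replicate 2 in air (-1.07) or replicate 2 under hypoxia (-0.83), at adjusted p of 0.0734 to 0.113. The amiRAP2.2-12 fall lost it without any of 16 single arrays of the 18, at -1.07 to -0.59 and adjusted p of 0.0511 to 0.147. That fall also lost its call after quantile normalization (-0.97, adjusted p = 0.054), after median centring (-0.91, adjusted p = 0.065) and with a replicate block (adjusted p = 0.0763). Fitting only the arrays compared ended both calls (adjusted p = 0.0877 and 0.366). In wild type the call held with each array left out in turn.

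Subfamily 85 fell or did not pass. UGT85A4 fell in all 3 genotypes, at -1.36 ± 0.20 (SE, adjusted p = 0.000276) in wild type, -1.16 (adjusted p = 0.000996) in HA-RAP2.12 and -0.93 (adjusted p = 0.00626) in amiRAP2.2-12. UGT85A2 fell in all 3 as well, at -1.17 ± 0.19 (SE, adjusted p = 0.000643), -0.64 (adjusted p = 0.0314) and -0.88 (adjusted p = 0.00687) in the same order. Its HA-RAP2.12 call was lost when any 1 of the 6 HA-RAP2.12 arrays but replicate 2 in air was left out, at -0.69 to -0.59 and adjusted p of 0.0575 to 0.0983, and also without the 4 arrays (-0.56, adjusted p = 0.133). In a fit restricted to the compared arrays, the amiRAP2.2-12 calls of UGT85A4 (adjusted p = 0.125) and UGT85A2 (adjusted p = 0.213) were lost.

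UGT85A5 fell in HA-RAP2.12 by 0.73 (SE 0.19, adjusted p = 0.0169), while -0.27 in wild type and -0.07 in amiRAP2.2-12 did not pass. The HA-RAP2.12 call was lost without replicate 1 in air (-0.59, adjusted p = 0.0746), replicate 2 in air (-0.71, adjusted p = 0.0537), replicate 2 under hypoxia (-0.67, adjusted p = 0.0621) or replicate 3 under hypoxia (-0.67, adjusted p = 0.0646). It was lost too without the 4 arrays (-0.72, adjusted p = 0.068) and in a fit restricted to the compared arrays (adjusted p = 0.101). UGT85A3 and UGT85A7 were at the floor.

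The second question of the design was whether altered RAP2.12, or the artificial microRNA, changed UGT expression itself. In air 0 members passed in HA-RAP2.12 against wild type by limma's adjusted p, against 0.536% of all probe sets. In amiRAP2.2-12 in air 0 passed, against 0.0132% of all probe sets. An unadjusted p under 0.05 was reached by 9 members in HA-RAP2.12 and 4 in amiRAP2.2-12. That limit is looser than the one behind the shares, and its share of all probe sets is not given, so these counts were not compared. The estimates for the 25 genes above the floor ran from -0.92 to 0.52 in HA-RAP2.12 and from -0.94 to 0.85 in amiRAP2.2-12.

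UGT72E1 and UGT73B1 came nearest to a difference in air. For UGT72E1 the wild-type arrays in air read 9.98, 10.10 and 9.83, those of HA-RAP2.12 read 9.21, 9.20 and 9.34, and those of amiRAP2.2-12 read 9.36, 9.38 and 9.60. The wild-type arrays lay above all those of the lines. The HA-RAP2.12 difference of -0.73 had an adjusted p of 0.105, and it passed without amiRAP2.2-12 hypoxia replicate 2 (adjusted p = 0.0127) and without the 4 arrays (-0.71, adjusted p = 0.00956). UGT73B1 gave -0.61 in HA-RAP2.12 (adjusted p = 0.184) and -0.94 in amiRAP2.2-12 (adjusted p = 0.0919). The former passed without HA-RAP2.12 air replicate 1 (-0.84, adjusted p = 0.0231), and the latter without that array (-0.94, adjusted p = 0.0343) or amiRAP2.2-12 air replicate 3 (-1.06, adjusted p = 0.0137). Without the 4 arrays UGT73B1 was lower in air in both lines, by -0.84 in HA-RAP2.12 (adjusted p = 0.00697) and -0.79 in amiRAP2.2-12 (adjusted p = 0.0292). In amiRAP2.2-12 the difference of 0.85 for UGT74B1 (adjusted p = 0.177) passed without amiRAP2.2-12 air replicate 3 (1.08, adjusted p = 0.00638).

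Under hypoxia 4 members differed between HA-RAP2.12 and wild type. UGT76B1 was higher, 1 of 47 against 2.09% of all probe sets, and UGT72B3, UGT73B1 and UGT74D1 were lower, 3 of 47 against 2.58%. In amiRAP2.2-12 0 members were higher, against 0.607% of all probe sets, and 2 were lower, UGT72B3 and UGT73B1, against 0.813%. These comparisons share the wild-type arrays. The hypoxia response itself differed from that of wild type for 2 members in HA-RAP2.12, UGT72B3 and UGT74D1. In either direction this was 4.26% of members against 1.62% of all probe sets. Both differences were negative, a direction called for 0.453% of all probe sets, and 0 members had a positive one, against 1.17%. In amiRAP2.2-12 0 members passed, against 0.176%. An unadjusted p under 0.05 was reached by 6 members, a looser limit for which the share of all probe sets is not given.

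UGT72B3 (AT1G01420) responded in wild type and hardly in the lines. Wild type read 5.43, 5.48 and 5.55 in air and 6.42, 6.41 and 6.26 under hypoxia. HA-RAP2.12 read 5.47, 5.44 and 5.28 and then 5.53, 5.20 and 5.44, and amiRAP2.2-12 read 5.44, 5.47 and 5.43 and then 5.60, 5.81 and 5.49. The 3 hypoxic wild-type arrays stood above the other 15 arrays, which lay close together.

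The wild-type rise of UGT72B3 was 0.88 ± 0.09 (SE, adjusted p = 2.07e-05), against -0.01 in HA-RAP2.12 and 0.19 in amiRAP2.2-12, neither past the test. The response in HA-RAP2.12 differed from that of wild type by -0.88 ± 0.13 (SE, adjusted p = 0.00588), a difference that held with each array left out in turn, at -0.95 to -0.79. The matching estimate for amiRAP2.2-12 was -0.69 ± 0.13 (adjusted p = 0.0725), and it passed without amiRAP2.2-12 air replicate 3 (-0.69, adjusted p = 0.0389), hypoxia replicate 1 (-0.67, adjusted p = 0.0409) or hypoxia replicate 2 (-0.78, adjusted p = 0.0385). Under hypoxia the gene was lower than in wild type by -0.97 in HA-RAP2.12 (adjusted p = 0.000369) and by -0.72 in amiRAP2.2-12 (adjusted p = 0.00321), where the call was lost in a fit of the compared arrays alone (adjusted p = 0.222).

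UGT74D1 (AT2G31750), which glucosylates auxin and its oxidised form, followed the same pattern in HA-RAP2.12. Wild type read 7.88, 7.58 and 7.70 in air and 8.75, 8.94 and 8.99 under hypoxia, a rise of 1.17 ± 0.14 (SE, adjusted p = 6.26e-05). HA-RAP2.12 read 8.07, 7.65 and 7.60 in air and 8.07, 7.60 and 7.81 under hypoxia, overlapping groups with a difference of 0.06 that did not pass. In amiRAP2.2-12, with 7.65, 7.59 and 7.71 and then 8.16, 8.44 and 8.23, it rose by 0.63 (adjusted p = 0.00885, and 0.0502 in a fit restricted to the compared arrays).

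The HA-RAP2.12 response of UGT74D1 differed from that of wild type by -1.12 ± 0.20 (SE, adjusted p = 0.0159), and the call held with each array left out in turn, at -1.24 to -0.97. Under hypoxia HA-RAP2.12 was lower than wild type by -1.07 (adjusted p = 0.00209). The amiRAP2.2-12 difference under hypoxia was -0.62 (adjusted p = 0.0548), which passed without HA-RAP2.12 air replicate 1 (adjusted p = 0.033) or hypoxia replicate 1 (adjusted p = 0.0437) and without the 4 arrays (-0.70, adjusted p = 0.0202).

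UGT73B1 was lower under hypoxia in both lines while its response kept a similar estimate. HA-RAP2.12 read 8.08, 7.50 and 7.30 in air and 10.12, 10.04 and 10.01 under hypoxia, and amiRAP2.2-12 read 7.37, 6.99 and 7.53 and then 9.94, 9.95 and 9.95. All 6 hypoxic arrays of the lines lay below the 3 of wild type. The differences under hypoxia were -0.92 ± 0.17 (SE, adjusted p = 0.0111) in HA-RAP2.12 and -1.03 ± 0.17 (adjusted p = 0.0148) in amiRAP2.2-12. The first was lost without HA-RAP2.12 hypoxia replicate 3 (-0.89, adjusted p = 0.0503) and the second without wild type hypoxia replicate 2 (-0.95, adjusted p = 0.0585) or replicate 3 (-1.05, adjusted p = 0.0513), and the second also in a fit restricted to the compared arrays (adjusted p = 0.093).

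UGT76B1 (AT3G11340), which glucosylates isoleucic acid, salicylic acid and N-hydroxypipecolic acid, was at the floor in air in all 3 genotypes. Wild type read 2.43, 2.11 and 2.11 in air and 4.66, 4.39 and 2.43 under hypoxia, so that a hypoxic array equalled the highest in air. HA-RAP2.12 read 2.11 on all 3 arrays in air and 6.60, 5.67 and 6.15 under hypoxia, and amiRAP2.2-12 read 2.41, 2.11 and 2.11 and then 4.05, 5.05 and 3.67. Under hypoxia the HA-RAP2.12 arrays were the highest of all, and replicate 3 of wild type was the lowest.

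The rises of UGT76B1 were 1.61 ± 0.49 (SE, adjusted p = 0.033) in wild type, 4.03 (adjusted p = 7.39e-05) in HA-RAP2.12 and 2.05 (adjusted p = 0.0127) in amiRAP2.2-12, all measured from the floor. The wild-type call was lost when any 1 of the wild-type arrays but hypoxia replicate 3 was left out, at 1.19 to 1.72 and adjusted p of 0.0619 to 0.136. The amiRAP2.2-12 call was lost without hypoxia replicate 2 (1.65, adjusted p = 0.0509) and without the 4 arrays (1.60, adjusted p = 0.154). Fitting only the arrays compared ended both (adjusted p = 0.195 in wild type and 0.0924 in amiRAP2.2-12).

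Under hypoxia UGT76B1 was higher in HA-RAP2.12 than in wild type by 2.31 ± 0.49 (SE, adjusted p = 0.0195). This call was lost without HA-RAP2.12 hypoxia replicate 1 (2.08, adjusted p = 0.0679), without hypoxia replicate 3 (2.31, adjusted p = 0.0729) and without the 4 arrays (2.08, adjusted p = 0.0677), and in a fit restricted to the compared arrays (adjusted p = 0.196). The response exceeded that of wild type by 2.42 ± 0.70 (SE), which did not pass (adjusted p = 0.127). It passed with the filter on dim probe sets (adjusted p = 0.0474) but not without the 4 arrays (2.19, adjusted p = 0.292).

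**Figure D3:**
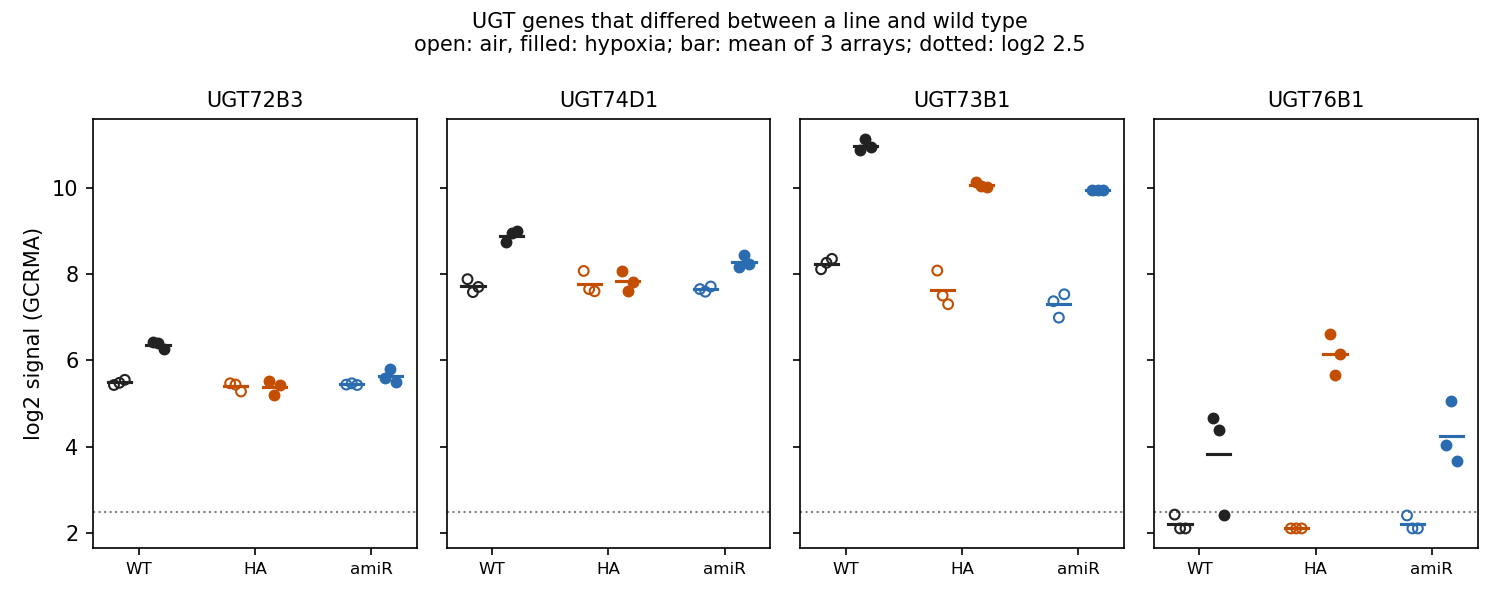
Log2 signal on each of the 18 arrays for the 4 UGT genes that differed from wild type under hypoxia in HA-RAP2.12, UGT72B3 and UGT73B1 also in amiRAP2.2-12; WT is wild type, HA is HA-RAP2.12 and amiR is amiRAP2.2-12. Open circles are air, filled circles hypoxia, bars the mean of 3 arrays and the dotted line log2 2.5. UGT72B3 and UGT74D1 rise in wild type, and their responses in HA-RAP2.12 differ from those by -0.88 and -1.12.

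Other members did not pass against wild type under hypoxia with all 18 arrays but did under some alternatives. UGT76E12 in HA-RAP2.12 gave 1.25, past the test without amiRAP2.2-12 hypoxia replicate 1 (adjusted p = 0.0248) and in a fit restricted to the compared arrays (adjusted p = 0.0293). In the same line UGT72E1 gave -0.54 without amiRAP2.2-12 hypoxia replicate 2 (adjusted p = 0.0181) and -0.69 without the 4 arrays (adjusted p = 0.00529). UGT76C1 gave -0.47 without amiRAP2.2-12 hypoxia replicate 2 (adjusted p = 0.0331), -0.47 in a fit restricted to the compared arrays (adjusted p = 0.0262) and -0.46 without the 4 arrays (adjusted p = 0.0496). UGT71C4 gave -0.47 without the 4 arrays (adjusted p = 0.0241), and UGT85A5 gave -0.63 with the filter on dim probe sets (adjusted p = 0.044).

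Without amiRAP2.2-12 hypoxia replicate 1 UGT85A2 gave 0.49 in HA-RAP2.12 (adjusted p = 0.0459) and 0.69 in amiRAP2.2-12 (adjusted p = 0.0195), and UGT80B1 gave 0.99 in amiRAP2.2-12 (adjusted p = 0.0475). Weighting the arrays by their quality with limma's arrayWeights gave 14 calls in HA-RAP2.12 and 9 in amiRAP2.2-12 under hypoxia. Among them was UGT87A2 in HA-RAP2.12 (0.78, adjusted p = 0.00605). The share of all probe sets called under arrayWeights is not given here, so these counts were not read as a result about the family.

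Many UGT genes lie beside a close relative. By the gene order of TAIR10.1, 18 pairs of members, made up of 31 genes, lay with at most 2 genes between them, and 14 of the pairs had no gene between. Both genes were above the floor in 6 of the pairs. In wild type both genes changed in 1 of these 6, UGT76E12 and UGT76E11, which rose by 3.25 and 4.31, a single gene passed the test in 4 and neither did in 1. In HA-RAP2.12 both changed in 3 of the 6, and in amiRAP2.2-12 in 1. Over all 18 pairs a single gene was called in 9 in wild type, and in 5 of these 9 a gene of the pair was at the floor, where no level can be read. Pairs with opposite calls numbered 0 in each genotype, and the difference between the genes of a pair was not tested. No share for neighbouring genes over all probe sets is given, and some genes belong to more than 1 pair. In wild type 17 of the 25 members above the floor were called, so the pair counts were not read as a result about neighbours.

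UGT73B5 and UGT73B4 lie next to each other with no gene between. The group mean of UGT73B5 in wild type went from 3.87 to 7.43, while UGT73B4 was at the floor in all groups. UGT84A3 lies between UGT84A1 and UGT84A4. It went from 5.71 to 8.94 in wild type, while UGT84A1 read 2.11 in both conditions and UGT84A4 went from 4.43 to 4.28.

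On chromosome 1 UGT85A7, UGT85A2, UGT85A5 and UGT85A3 follow one another. UGT85A2 fell in wild type from 9.88 to 8.71, UGT85A5 read 6.60 and 6.33 and did not pass, and the outer pair were at the floor. UGT71B1 and UGT71B6, with 2 genes between, both rose in HA-RAP2.12 and in amiRAP2.2-12, and UGT71B1 alone passed in wild type. Cross-hybridisation between such copies was not tested. All 47 probe set identifiers lacked the endings that mark probe sets matching several transcripts.

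**Figure D4:**
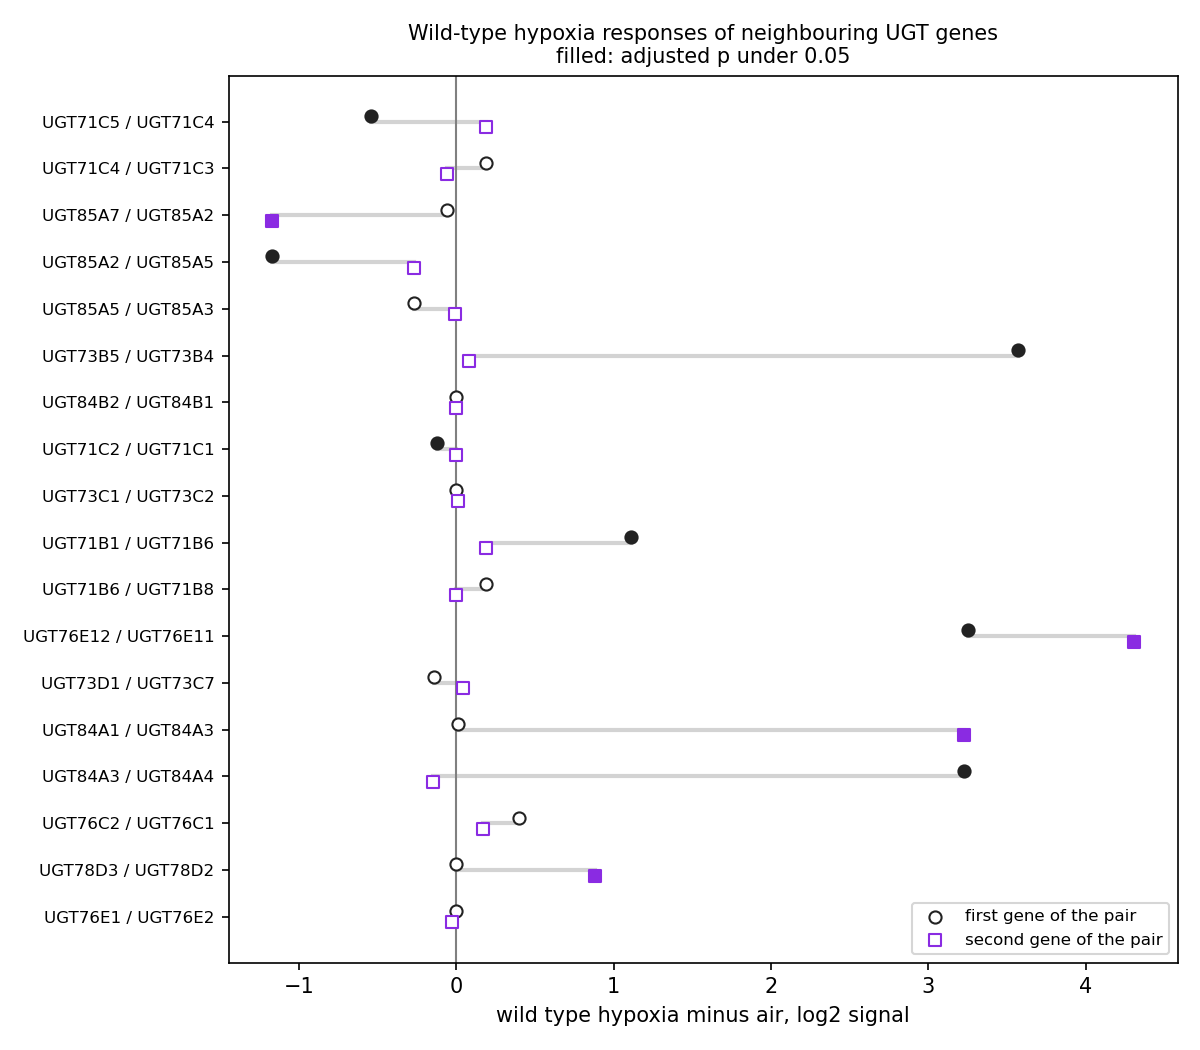
Wild-type hypoxia minus air on the log2 scale for 18 pairs of neighbouring UGT genes, with the first gene of a pair as a circle and the second as a square. Filled symbols passed an adjusted p of 0.05, and the grey line joins the pair. UGT76E12 and UGT76E11 are both filled, at 3.25 and 4.31, and UGT73B5 at 3.57 lies beside UGT73B4, which was at the floor.

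A further 4 genes carry a UGT name only as a synonym and were kept apart from the members. GT72B1 (UGT72B1), which acts on chlorinated phenols and anilines and on lignin precursors, rose by 1.94 ± 0.19 (SE, adjusted p = 1.2e-05) in wild type and 1.52 (adjusted p = 9.23e-05) in HA-RAP2.12, with 0.56 in amiRAP2.2-12 (adjusted p = 0.0667). SGT (UGT80A2), the other sterol glucosyltransferase, gave 0.13, -0.25 and 0.04, none past the test, unlike the falls of UGT80B1, although the difference between these genes was not tested. UF3GT (UGT79B1) and AT5G54010 (UGT79B6) were at the floor. IAGLU, an auxin glucosyltransferase outside the naming rule, rose by 6.21, 6.52 and 6.19 in wild type, HA-RAP2.12 and amiRAP2.2-12, all past the test. In HA-RAP2.12 it was lower than in wild type, by -1.41 in air (adjusted p = 0.0299) and -1.10 under hypoxia (adjusted p = 0.0257).

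The pathways that feed these enzymes could hardly be read, since few of their genes had a named probe set. For the supply of UDP-sugars it was 1 of 21, USP, a UDP-sugar pyrophosphorylase, which gave 0.09, 0.13 and 0.06 in the 3 responses. For phenylpropanoid and flavonoid synthesis it was 2 of 22, DFR and BAN, at or near the floor. For glucosinolate synthesis it was 1 of 17, BCAT4, which gave 1.13, 0.25 and -1.17, and for detoxification and oxylipin response 1 of 16, GSTU25, at the floor. None of these 5 genes passed the test in any of the 3 hypoxia responses, where the median over all probe sets was 0.00.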

How the data were processed

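The values deposited by the authors are log2 signals, 1 per probe set and array, made with GCRMA per the submitters' processing notes (version not given in the sources used here), which corrects background and equalises arrays. Of 22810 probe sets, 64 controls were left out. The annotation named 1 gene for 13513 of the 22746 tested, several for 503 and did not list 8730. Of the 13513, 13436 were matched to the TAIR10.1 gene table and took their symbol from it, whether or not it had changed. That table lists 58 UGT genes, and 11 of them have no member here. Arrays give no read depth, and their number limits the precision.

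With limma 3.58.1 (lmFit, eBayes) in R 4.3.3, 1 model with 6 group means covered the 18 arrays and gave 9 comparisons, without a replicate block, and the UGT results were read from the fit of the whole table. The fit was tested on simulated data. Python 3.11.15 and matplotlib 3.10.9 drew the figures. Array values are given for members that differed between a line and wild type and for the 8 largest called changes in each hypoxia response; other called members are named with their differences. The members, lists and limits were chosen with earlier results of these data known. Alternatives were quantile normalization, median centring, a dim filter (log2 above 4 on 3 or more arrays), eBayes with a robust variance trend, arrayWeights, dropping identifiers that end in _s_at or _x_at, only the arrays compared, a replicate block, a minimum log2 change of 1, the mean over a gene's probe sets and leaving out each array. Leaving out 4 arrays was chosen after seeing the data.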

Additional observations from a re-analysis of the deposited data

Results flagged for a closer look

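For 2 members the hypoxia response differed between genotypes by a test of that difference itself. The response of UGT72B3 in HA-RAP2.12 differed from that of wild type by -0.88 (SE 0.13, limma adjusted p = 0.00588). The response of UGT74D1 differed by -1.12 (SE 0.20, limma adjusted p = 0.0159).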

How the results depend on the processing

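Under 30 alternatives, 95 pairs of member and comparison were followed, 58 of them called with all arrays. The others were pairs that passed under at least 1 alternative, so each of them gained a call by this choice. Of 2849 repeats 2630 kept their direction and side of the threshold, 136 lost a call, 83 gained one and 0 changed direction. Pairs that never passed were not counted, so these tallies are not a rate over all members and comparisons. Of the 58 calls, 29 were kept under every alternative and 43 with each array left out in turn. The numbers of members called were 18, 17 and 15 in the hypoxia responses of wild type, HA-RAP2.12 and amiRAP2.2-12. Leaving out each array gave 15 to 18, 14 to 18 and 10 to 16. A limit of log2 1 left 11 in HA-RAP2.12 and 7 in amiRAP2.2-12, and fitting only the arrays compared left 5 in amiRAP2.2-12. For HA-RAP2.12 against wild type in air, 0 became 1 (dim filter), 3 (arrayWeights), 2 (4 arrays left out) and 0 to 1 with each array left out; for amiRAP2.2-12 in air, 0 became 1, 3, 1 and 0 to 2. Under hypoxia the 4 in HA-RAP2.12 became 14 with arrayWeights, 2 with the log2 1 limit and 2 to 6 with each array left out, and the 2 in amiRAP2.2-12 became 9, 1 and 1 to 5, with 0 when only the arrays compared were fitted. The 2 differing responses in HA-RAP2.12 became 6 with arrayWeights, 5 with only the arrays compared, 1 with the log2 1 limit and 2 to 4 with each array left out, and the 0 in amiRAP2.2-12 became 1 with median centring, 1 with the dim filter, 4 with arrayWeights and 0 to 3. The cause was not tested, and the log2 1 limit lowers counts by construction. Apart from that limit in the hypoxia responses, the share of all probe sets called is not given for the alternatives. The counts therefore describe the members only. UGT72B3, at -0.88, lost its differing response in HA-RAP2.12 under that limit alone, and UGT74D1 under no alternative. Same-numbered arrays showed no general pairing across the 6 groups. Of 45 such pairs 9 correlated above 0.1 (median 0.0165), and 7 of 18 arrays correlated best with their own number. Most of these pairs joined different genotypes, so pairing of air with hypoxia within a genotype was not tested separately. The 4 arrays that deviated together did share a number within each line. With a replicate block the counts were 17, 17 and 13 in the hypoxia responses, 0 and 0 in air, 4 and 2 under hypoxia and 2 and 0 for the differing responses of HA-RAP2.12 and amiRAP2.2-12. Signal at the floor limits what can be seen for 22 members. The symbols of the array annotation also gave 47 members.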
